A study of Brassica oleracea var. capitata with 6 samples.

Results

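The 78 genes described here were already transcribed in wild-type cabbage leaves and stood clearly higher in leaves of *nwgl*, a glossy cabbage with little surface wax. They are annotated genes with at least 0.5 FPKM in each wild-type (WT) library and with a lowest *nwgl* value at least 3 times the highest WT value. FPKM divides the fragments of a gene by the length of its transcript and by the size of the library, so levels can be compared between genes. The deposited gene table has rows for 27024 annotated genes and 4473 new loci found by assembling the reads. Of the annotated genes, 15200 reached the WT minimum, and the 78 were 0.513% of them. *Bol035700*, *Bol036039*, *Bol025577* and *Bol025251*, which are wax genes, and a run of gene numbers around the mapped end of chromosome C08 were left out by name. One of these, *Bol035700*, met the same rule, with 12.4, 22.3 and 18.7 FPKM in *nwgl* and 1.01, 0.971 and 0.849 FPKM in WT. The 78 genes were thus chosen by their FPKM in all 6 libraries. Their differences between *nwgl* and WT are therefore given as a description, without a test.

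The *nwgl* (*non-wax glossy*) phenotype is dominant and came from a single plant of the inbred line G287. It was compared with WT plants whose line the labels do not name. Leaves of field-grown plants were taken at the harvesting stage, and 3 *nwgl* and 3 WT libraries were made from total RNA with a directional kit. Plants of 1 origin carry every allele of that origin, so an effect of the *nwgl* locus and of other differences between these plants cannot be told apart. Leaf RNA holds the RNA of all cell types of the leaf, so a change in the number of cells of a type and a change in RNA per cell cannot be told apart either. No leaf marker could be checked, because the tables identify genes by Bolbase ID without a name.

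Cuticular wax covers the epidermis of leaves and stems. It is made from very long chain fatty acids, which epidermal cells convert to alkanes, ketones and secondary alcohols by one route and to primary alcohols and esters by another. The wax layer limits water loss and is the first surface that microbes and insects meet. Plant cells recognise molecules of microbes through receptors at the cell surface and inside the cell, which pass the signal on through calcium, protein kinases and transcription factors to defence genes. Phenylpropanoid metabolism turns phenylalanine into lignin and other phenolic compounds that strengthen cell walls and deter microbes. Genes of both kinds appear among the annotated members.

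The libraries differed in composition. Relative to WT replicate 1, depth read from low FPKM values lay between 0.892 and 1.02, although only 5 to 14 genes gave each ratio. Only ratios near 1 were searched, so a large difference in depth could not have been seen. Summed FPKM lay between 291844 and 451537 in *nwgl* and between 310919 and 436367 in WT. The 10 highest rows took between 22.7% and 57.3% of the sum in *nwgl* and between 29.1% and 47.7% in WT, with the highest share in *nwgl* replicate 3. Scaling the libraries to the median ratio of their genes kept 70 of the 78 genes in a set of 109. Quantile normalization kept 69 in a set of 117, and 67 met the rule under both.

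The levels of the 78 genes covered a wide range in *nwgl* and a narrow low range in WT. Mean FPKM lay between 3.48 and 119.8 in *nwgl*, with a median of 21.6, and between 0.629 and 10.3 in WT, with a median of 1.77. The median gene of the 15200 expressed genes had 5.45 FPKM in *nwgl* and 5.52 FPKM in WT. Ranked among those genes, the median member stood at percentile 89.0 in *nwgl* and at percentile 13.1 in WT. Most of these genes thus belonged to the weakly expressed part of the WT leaf. The rule acts on the same values and favours genes low in WT and high in *nwgl*, so it sets part of this shift in rank. In *nwgl*, 63 of the 78 averaged at least 10 FPKM, 9 at least 50 FPKM and 2 at least 100 FPKM. In WT, 17 averaged under 1 FPKM, 27 between 1 and 2, 29 between 2 and 5, and 5 at least 5 FPKM. The median ratio of means (*nwgl* over WT) was 9.37 in the genes under 1 FPKM in WT, 13.7 between 1 and 2, 8.62 between 2 and 5, and 10.4 in the 5 genes of at least 5 FPKM, with no order along the WT level.

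**Figure D1:**
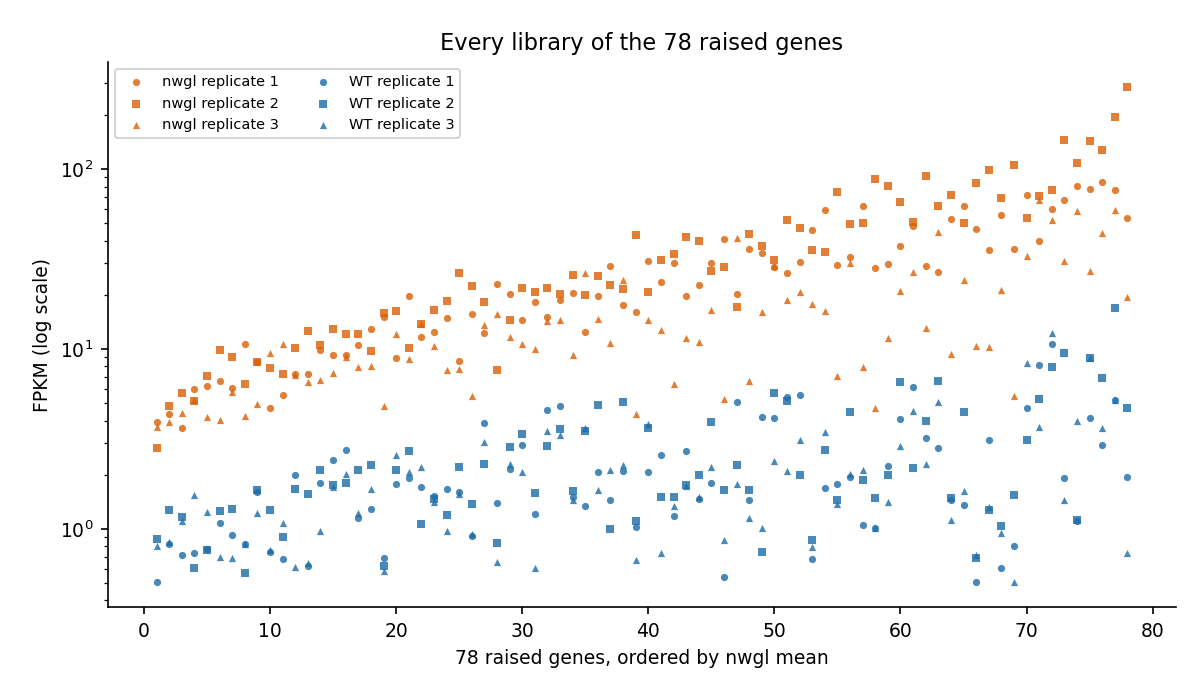
Level of each of the 78 genes in each library, in FPKM on a log scale, with the genes ordered along the horizontal axis by their *nwgl* mean. Orange symbols are the *nwgl* libraries and blue symbols the WT libraries, with a symbol for each replicate number. Within each gene the orange symbols lie above the blue ones, as the rule requires, and *nwgl* replicate 2 (squares) is often at the top and *nwgl* replicate 3 (triangles) at the bottom of the orange group.

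Summed over the 78 genes, FPKM was 2181, 3398 and 1249 in *nwgl* replicates 1, 2 and 3, and 177, 215 and 164 in the WT replicates. The rule keeps these sums from overlapping between the genotypes. The lowest *nwgl* sum was in replicate 3. As a share of all FPKM in a library, the genes held 0.747%, 0.979% and 0.277% in *nwgl*, and 0.0430%, 0.0492% and 0.0529% in WT. The share averaged 0.668% ± 0.358 in *nwgl* and 0.0484% ± 0.00498 in WT (SD, n = 3 each). As deposited, the SD was thus larger in *nwgl*, also in proportion to the mean. With the 10 highest rows of each library taken out of the total, the share lay between 0.648% and 1.27% in *nwgl* and between 0.0607% and 0.101% in WT. It then averaged 1.03% ± 0.334 in *nwgl* and 0.0833% ± 0.0207 in WT (SD, n = 3 each). In proportion to their means, these SDs were much closer to each other. No single gene made up the sum, as the 10 genes with the highest *nwgl* means held 34.5% of it.

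The ratio of the lowest *nwgl* to the highest WT library, on which the rule acts, was 3.88 in the median gene and reached 20.4. It lay between 3 and 4 in 43 genes, was at least 5 in 19 and at least 10 in 4. The 3 genes just inside the threshold, *Bol043553*, *Bol038667* and *Bol027588*, had ratios of 3.001, 3.006 and 3.025. The 3 just outside, *Bol033309*, *Bol021932* and *Bol043763*, had 2.991, 2.983 and 2.981. The threshold therefore cuts through a continuous range of ratios. Among the 15200 expressed genes, every *nwgl* library lay above every WT library in 1119 (7.36%), 378 were separated by at least 1.5 times, 187 by at least 2 times and 35 by at least 4 times. The same rule with the genotypes exchanged gave 15 genes that were lower in *nwgl*. Of the new loci, which have no Bolbase number and are not counted among the 78, 7 met the rule and 3 met the exchanged rule.

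**Figure D2:**
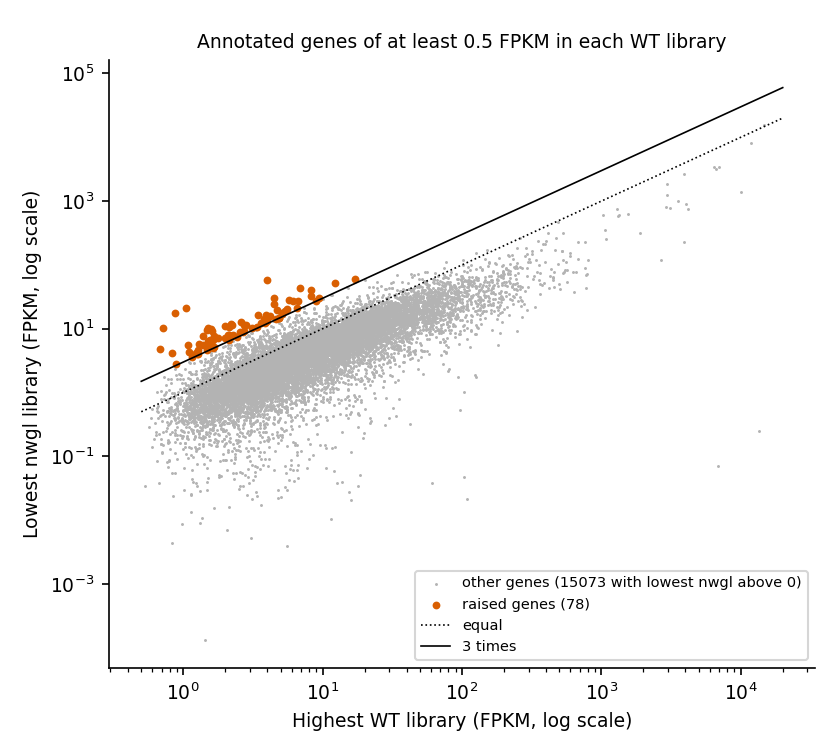
Lowest *nwgl* library against highest WT library for annotated genes with at least 0.5 FPKM in each WT library, both in FPKM on log scales. Orange points are the 78 genes and grey points the others with a lowest *nwgl* value above 0. The solid line marks 3 times and the dotted line equality. The orange points lie on or above the solid line and mostly at the low end of the WT axis, as an extension of the grey cloud rather than a separate cloud.

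In a limma fit over 24332 genes, all 78 reached an adjusted p under 0.05 (Benjamini-Hochberg) with a log2 difference of 1 or more, beside 4.89% of all tested genes called in both directions, 3.69% called higher and 1.2% called lower in *nwgl*. Since the rule used the same libraries and contrast, nothing is read from this count. Without *nwgl* replicate 1 the fit called 43 of the 78 genes, beside 403 calls over all genes. On the log2(FPKM + 0.1) scale the difference between *nwgl* and WT was 3.21 in the median gene, with a range from 2.07 to 5.56 and a median standard error of 0.47. The median over all tested genes was -0.04, and scaling or quantile normalization left it at -0.03 and -0.11. The ratio of means, *nwgl* over WT, was 9.48 in the median gene and lay between 4.45 and 73.8.

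Of the 78, 3 members stood in pathway lists, which are lists of genes of a KEGG pathway that the study drew up from these libraries and which give no independent evidence of a direction. *Bol020355* is listed under plant-pathogen interaction, the pathway of microbe recognition and defence signalling. Its FPKM was 32.4, 49.7 and 30.2 in *nwgl*, and 1.95, 4.49 and 2.01 in WT. Replicate 2 was the highest of both groups, which do not overlap in any member by the rule. The mean was 37.4 ± 10.7 in *nwgl* and 2.81 ± 1.45 in WT (SD, n = 3 each), a log2 difference of 3.76 with a standard error of 0.44.

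*Bol014175* is listed under phenylpropanoid biosynthesis, which supplies lignin and other phenolics. It had 11.7, 13.7 and 13.7 FPKM in *nwgl*, and 1.71, 1.06 and 2.22 FPKM in WT. The *nwgl* replicates hardly differed from each other, and this gene did not show the low level in *nwgl* replicate 3 that most members had. Its log2 difference was 2.95 with a standard error of 0.39.

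*Bol018619* is listed both under limonene and pinene degradation and under stilbenoid, diarylheptanoid and gingerol biosynthesis, lists that hold the same 6 genes. Limonene and pinene are volatile monoterpenes, and stilbenoids are phenolics derived from phenylpropanoids. Its FPKM was 30.4, 47.2 and 20.6 in *nwgl*, and 5.54, 1.98 and 3.12 in WT. WT replicate 1 was the highest of its group, and the lowest *nwgl* library lay above it, as the rule requires. The log2 difference was 3.21 with a standard error of 0.48.

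**Figure D3:**
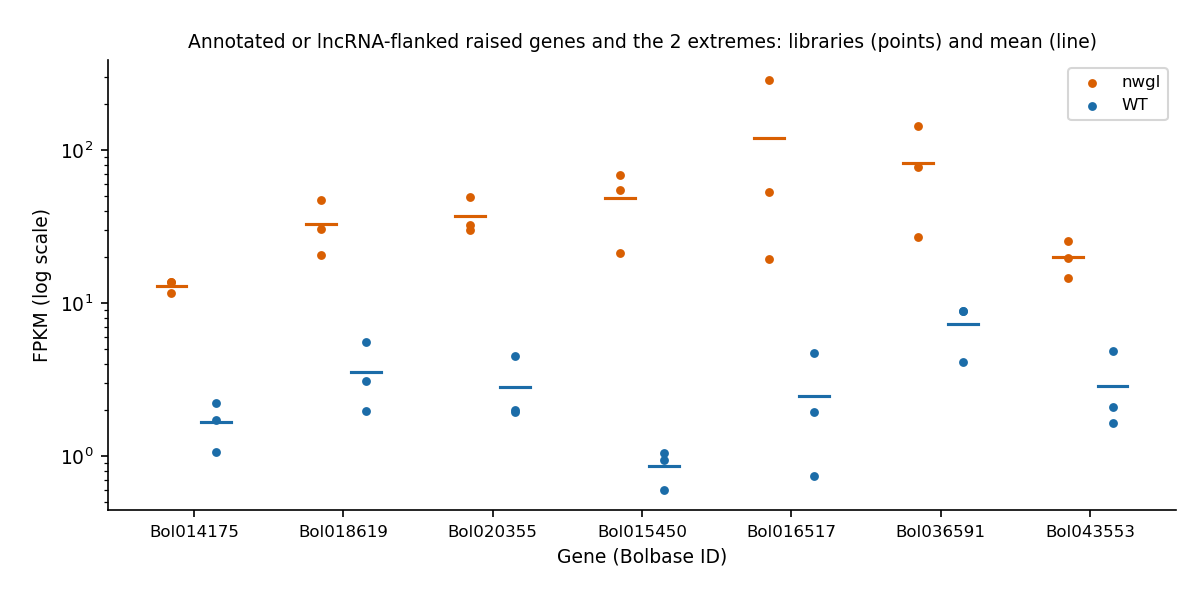
Level of 7 members in each library, in FPKM on a log scale. Points are libraries and lines the mean of 3, with *nwgl* in orange left of WT in blue. *Bol014175*, *Bol018619* and *Bol020355* are in pathway lists, *Bol015450* has the largest ratio of lowest *nwgl* to highest WT, *Bol016517* has the highest *nwgl* mean, and *Bol036591* and *Bol043553* have lncRNAs listed nearby. The *nwgl* points of *Bol016517* spread from 19.4 to 286.4 FPKM, and those of *Bol014175* from 11.7 to 13.7 FPKM.

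The 9 lists for genes higher in *nwgl* hold 48 different genes, only those of each pathway that the study had called higher in these libraries. limma called 33 of them higher and none lower, beside 3.69% of all tested genes called higher, a direction that the choice of the lists fixes. Beside the 3 members, 20 of the 48 were below 0.5 FPKM in a WT library, 14 were separated by less than 3 times, 1 overlapped between the genotypes, 6 were new loci and 4 were left out by name. The 9 lists for genes lower in *nwgl* hold 29 different genes, of which none was a member. limma called 11 of the 29 lower, beside 1.2% of all tested genes called lower, and here too the choice of the lists fixes the direction.

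In the plant-pathogen interaction list of 15 genes, 12 were called higher by limma, beside 3.69% of all tested genes, with a median log2 difference of 2.71. Besides *Bol020355*, 5 genes were separated by less than 3 times, 3 were below 0.5 FPKM in a WT library and 6 were new loci. The most abundant of the 5 was *Bol005163*, which had 83.6, 103.4 and 45.1 FPKM in *nwgl*, and 22.9, 14.5 and 9.26 FPKM in WT. Its *nwgl* and WT libraries did not overlap, and replicate 3 was the lowest of both groups. One of the new loci, *Kohlrabi_newGene_12206*, met the rule in all but its lack of a Bolbase number, with 16.7, 18.9 and 10.3 FPKM in *nwgl* and 1.40, 1.07 and 1.64 FPKM in WT.

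For the lists that follow, the share of all tested genes called higher is again 3.69%. In the phenylpropanoid list of 10 genes, 6 were called higher, with a median log2 difference of 3.20, and 8 were below 0.5 FPKM in a WT library. Most listed genes of this pathway were thus near or below the minimum in WT, and *Bol014175* was the one that cleared it with a separation of 3 times. In the list of 6 genes shared by limonene degradation and stilbenoid synthesis, 4 were called higher, with a median log2 difference of 3.38, and 3 were below 0.5 FPKM in a WT library. The starch and sucrose list of 10 genes had no member, 8 called higher and 7 below 0.5 FPKM in a WT library.

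Of the 9 wax genes that the study names, none was a member. Of the 9, 5 were left out by name or by gene number, *Bol038193* and *Bol024192* were below 0.5 FPKM in a WT library, and *Bol013612*, annotated as CER4, a reductase of the primary alcohol route, had 3.80, 3.79 and 4.09 FPKM in *nwgl*, and 26.3, 29.5 and 6.06 FPKM in WT. *Bol038557*, annotated as an AP2-like transcription factor, had 5.42, 10.6 and 9.88 FPKM in *nwgl*, and 2.47, 3.67 and 1.06 FPKM in WT. Neither of the last pair overlapped between the genotypes, and limma called neither. The study, which used DESeq, reported all 9 as changed, with *Bol013612* lower and *Bol038557* higher in *nwgl*. Their log2 differences were -2.08 (*Bol013612*) and 1.91 (*Bol038557*), with standard errors of 0.58 and 0.51.

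**Figure D4:**
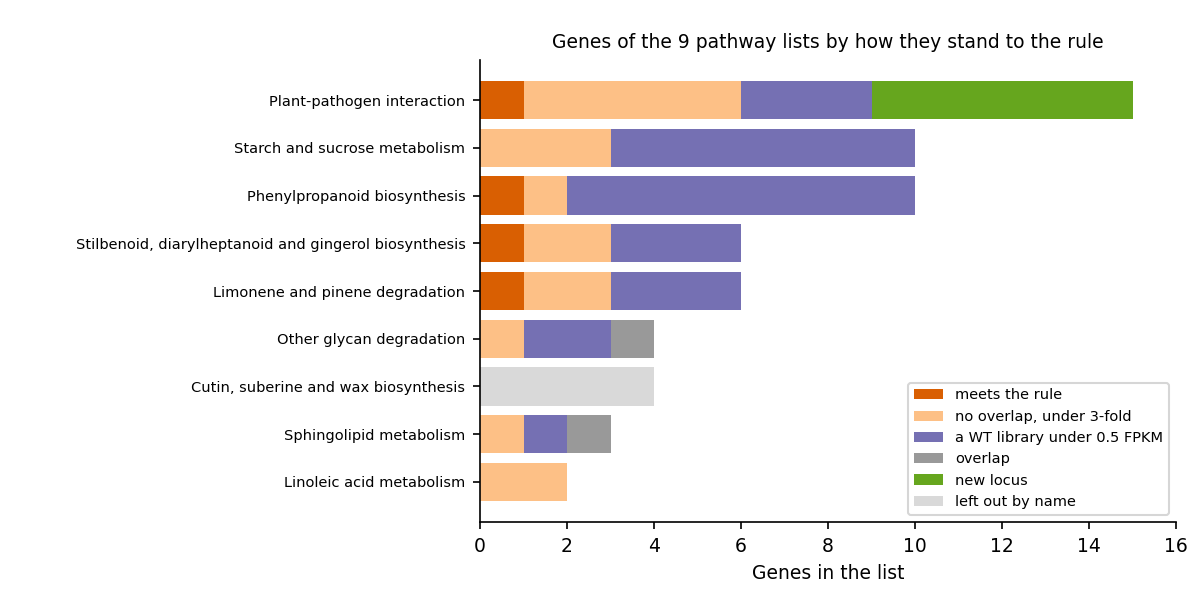
Number of genes in each of the 9 pathway lists for genes higher in *nwgl*, divided by how they stand to the rule. Orange is a member, light orange a gene without overlap but under 3 times, purple a gene below 0.5 FPKM in a WT library, grey an overlap, green a new locus and light grey a gene left out by name. A gene in several lists is counted in each. Purple makes up 8 of the 10 phenylpropanoid genes, and green 6 of the 15 plant-pathogen interaction genes.

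The remaining members have no annotation in the sources used here. *Bol015450* had the largest ratio of lowest *nwgl* to highest WT, 20.4. Its FPKM was 55.3, 69.1 and 21.3 in *nwgl*, and 0.604, 1.04 and 0.947 in WT. The WT libraries lay close together near 1 FPKM, and the *nwgl* libraries were all far above them. Its log2 difference was 5.52 with a standard error of 0.49.

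*Bol016517* had the highest *nwgl* mean. Its FPKM was 53.5, 286.4 and 19.4 in *nwgl*, and 1.94, 4.73 and 0.737 in WT. The mean of 119.8 ± 145.3 in *nwgl* (SD, n = 3), against 2.47 ± 2.05 in WT (SD, n = 3), rested on replicate 2, and replicates 2 and 3 were the highest and lowest of both groups. The standard error of its log2 difference of 5.05 was 0.94.

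*Bol030014*, *Bol038117* and *Bol044840* were the other members with a ratio of at least 10 and were chosen after their values were seen. *Bol030014* had 80.5, 107.8 and 58.7 FPKM in *nwgl*, and 1.11, 1.12 and 3.96 FPKM in WT. *Bol044840* had 46.1, 35.7 and 17.7 FPKM in *nwgl*, and 0.683, 0.873 and 0.791 FPKM in WT. Both were low and steady in most WT libraries, the exception being WT replicate 3 for *Bol030014*.

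Of the 78, 2 members lay within 100 kb of a long noncoding RNA (lncRNA) that the study lists as differentially expressed, 6 transcripts in all. lncRNAs are transcripts without a long open reading frame, some of which affect the transcription of genes near them. *Bol036591* had 77.5, 143.6 and 27.2 FPKM in *nwgl*, and 4.12, 8.88 and 8.90 FPKM in WT, so its lowest *nwgl* library was 3.05 times its highest WT library. This gene was no longer separated by 3 times after median-of-ratios scaling or quantile normalization. Its 5 listed lncRNAs belong to the locus MSTRG.5278, 7 transcripts of which are in the lncRNA table. Summed over the 7, FPKM was 11.6, 8.53 and 9.05 in *nwgl*, and 0, 0.00628 and 0 in WT.

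The transcripts of this locus did not share an order among *nwgl* replicates. MSTRG.5278.11 had 4.72, 0.701 and 3.98 FPKM in *nwgl*, lowest in replicate 2. MSTRG.5278.1 had 1.21, 3.03 and 0.558 FPKM in *nwgl*, highest in replicate 2 like *Bol036591*. Both were listed at 0 in every WT library, so no fold is given. The sum over the locus was steadier between *nwgl* replicates than *Bol036591* itself, which was highest in replicate 2 and lowest in replicate 3.

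*Bol043553*, which stood just inside the threshold, had 19.8, 25.5 and 14.6 FPKM in *nwgl*, and 2.08, 4.86 and 1.65 FPKM in WT. The lncRNA near it, MSTRG.86147.2, had 2.25, 3.21 and 1.56 FPKM in *nwgl* and was listed at 0 in every WT library. Gene and lncRNA were both highest in *nwgl* replicate 2 and lowest in *nwgl* replicate 3, the order that most members had. With 3 replicates in a group, no relation between the 2 transcripts was computed.

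The members were spread over the gene numbers. Consecutive Bolbase numbers were neighbouring genes in the mapped interval of C08, and among the 78 members there was 1 pair with consecutive numbers. *Bol008406* had 6.11, 9.01 and 5.74 FPKM in *nwgl*, and 0.927, 1.29 and 0.688 FPKM in WT. *Bol008407* had 15.01, 21.8 and 14.4 FPKM in *nwgl*, and 4.598, 2.90 and 3.50 FPKM in WT. Both were highest in *nwgl* replicate 2, with nearly equal replicates 1 and 3. A further 2 pairs lay within 3 numbers of each other, *Bol019400* with *Bol019403* and *Bol027610* with *Bol027613*. How reads that match several genes were assigned is not given in the sources used here, so neighbouring copies with shared sequence could share reads.

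Of the 154 numbers next to a member, 113 were listed in the table and 86 were tested. Of these 86, 3 were called higher (3.49%) and none lower, beside 3.69% of all tested genes called higher. Their median log2 difference was 0.02, and 52.3% were above 0, beside 47.5% of all tested genes. The difference of the members did therefore not extend to most of their neighbours by number. The 3 called neighbours, *Bol038118*, *Bol004475* and *Bol038472*, were picked out after their values were seen. *Bol038118* had 29.5, 49.8 and 9.07 FPKM in *nwgl*, and 0.353, 0.722 and 0.399 FPKM in WT. It missed the WT minimum of 0.5 FPKM and stood beside the member *Bol038117*, which had 46.5, 83.7 and 10.4 FPKM in *nwgl*, and 0.504, 0.685 and 0.716 FPKM in WT. The 2 genes had the same order of *nwgl* replicates.

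The *nwgl* replicates differed among themselves in these genes, which the rule did not fix. Replicate 2 was the highest *nwgl* library in 56 members (71.8%), replicate 1 in 17 and replicate 3 in 5. Replicate 3 was the lowest *nwgl* library in 63 members (80.8%). Among the 14319 other annotated genes with at least 0.5 FPKM in all 6 libraries, replicate 2 was the highest *nwgl* library in 77.2% and replicate 3 the lowest in 54.7%. A high replicate 2 was thus common to most genes, and a low replicate 3 was more frequent in the members. After median-of-ratios scaling, replicate 2 was the highest in 26 members, replicate 1 in 38 and replicate 3 in 14. Replicate 3 then remained the lowest in 56 (71.8%) of the members and in 40.0% of the other genes.

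The ratio between *nwgl* replicates gives the same picture in size. In scaled values, replicate 1 over replicate 3 was 1.66 in the median member and 1.02 in the median of the 14319 other genes. Replicate 2 over replicate 3 was 1.33 in the median member and 1.05 in the median other gene. The 135 genes among the others that limma called higher in *nwgl* gave 1.496 and 1.42 for these 2 ratios, between the members and the rest for the first and above the members for the second. The lower level in *nwgl* replicate 3 was therefore not particular to the 78 members. That library also had the largest share of FPKM in its 10 highest rows, 57.3%, and the part of this share in the result was not tested.

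**Figure D5:**
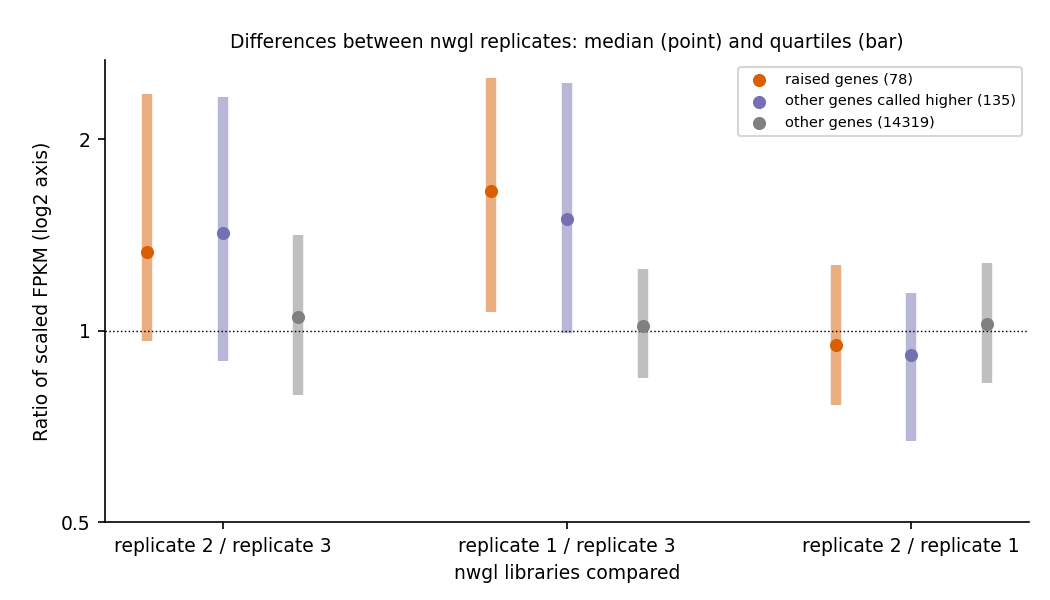
Ratios between the *nwgl* libraries after median-of-ratios scaling, on a log2 axis, for the 78 members (orange), the 135 other genes called higher (purple) and all 14319 other genes (grey, which include the 135). Points are medians over genes and bars run between the quartiles. The orange and purple points lie above 1 where replicate 3 is the denominator, at 1.66 and 1.496 for replicate 1 and at 1.33 and 1.42 for replicate 2, while the grey points lie near 1.

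In the members, the highest *nwgl* library was 2.30 times the lowest in the median gene, against 2.23 times in the 135 other genes called higher and 1.72 times in all other genes. It was more than 3 times the lowest in 25 members (32.1%), in 48 of the 135 genes (35.6%) and in 1571 (10.97%) of all other genes. A large spread between *nwgl* replicates was thus shared by the other genes called higher. After median-of-ratios scaling the median was 2.03 in the members, 2.10 in the 135 genes and 1.47 in all other genes. The rule limits the highest WT library of a member, so it can set part of the spread between WT replicates. Between WT replicates, the ratio of highest to lowest was 1.82 in the members and 2.11 in the other genes as deposited. This gap was gone after scaling, with 1.91 in the members and 1.89 in the other genes, and after quantile normalization, with 1.82 and 1.83 for these groups. More than 3 times between WT replicates was found in 12.8% of the members and 25.7% of the other genes as deposited, in 14.1% and 18.6% of these groups after scaling, and in 15.4% and 15.3% after quantile normalization. In 35 members, *nwgl* replicate 3 and WT replicate 2 together set the ratio on which the rule acts, a count not made for other genes. As deposited, WT replicate 2 was the highest WT library in 52.6% of the members, 63.0% of the 135 genes and 51.0% of all other genes. In the same groups *nwgl* replicate 3 was the lowest *nwgl* library in 80.8%, 71.9% and 54.7%. Both were thus common outside the members.

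The members ranged from nearly constant to widely variable between *nwgl* replicates, and the examples that follow were chosen after their values were seen. The steadiest was *Bol030382*, with 28.5, 31.4 and 29.1 FPKM in *nwgl*, and 4.14, 5.72 and 2.38 FPKM in WT. The most variable was *Bol020453*, with 36.1, 105.5 and 5.48 FPKM in *nwgl*, and 0.808, 1.55 and 0.508 FPKM in WT. In *Bol020453* the lowest *nwgl* library was nearer to WT than to the highest *nwgl* library, although by the rule the groups did not overlap.

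In 11 members the *nwgl* replicates differed by less than 1.5 times, and their log2 differences from WT lay between 2.07 and 2.95, with a median of 2.49. In 15 members they differed by more than 5 times. In all 15 of these replicate 3 was the lowest *nwgl* library, and in 13 replicate 2 was the highest. The log2 differences of the 15 from WT lay between 3.27 and 5.56, with a median of 4.09. Because the rule acts on the lowest *nwgl* library, a variable gene needs a higher mean to meet it.

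A group of 5 members departed from the common order and were highest in *nwgl* replicate 3. *Bol027390* had 20.2, 17.2 and 41.3 FPKM in *nwgl*, and 5.09, 2.27 and 1.77 FPKM in WT. *Bol013064* had 12.5, 19.8 and 26.4 FPKM in *nwgl*, and 1.34, 3.50 and 3.63 FPKM in WT. In both, the *nwgl* replicate that was low in most members was the highest. The others were *Bol031437*, *Bol006350* and *Bol027831*, with 10.7, 9.51 and 24.2 FPKM in *nwgl* replicate 3.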

How the data were processed

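Leaf RNA was sequenced in 6 libraries, 3 of *nwgl* and 3 of WT. The authors used HISAT2 for alignment to Bolbase V1.0 and StringTie 1.3.1 for assembly, and deposited FPKM in 2 tables, with 31497 rows of genes and 4459 of lncRNA transcripts. How the strand was used is not given in the sources used here. FPKM keeps no total count, so precision was judged from the replicates, which the labels call biological. Depth relative to WT replicate 1 was taken as the most frequent ratio of values under 0.1 FPKM, among ratios near 1 only.

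The members and lists were chosen with earlier results of these data known. Members were found on the deposited values. limma 3.58.1 (R 4.3.3, lmFit, eBayes with trend) was fitted on log2(FPKM + 0.1) to genes with a mean of at least 0.1 FPKM, which understates differences of low genes. In simulated data with 200 changed genes among 24332, it called 5 of 50 genes raised by a log2 difference of 2 and 37 of 50 raised by 4. Of 50 genes lowered by 2 it called 4, and of 50 lowered by 4 it called 35, with 2 false calls. The real fit called 1190 genes, so these shares need not carry over to it. The study applied DESeq to counts, which were not used here. Spread was computed in Python 3.11.15 with pandas 2.3.3.

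Genes named are members in a pathway list, the member with the largest ratio, the one with the highest *nwgl* mean, those with a listed lncRNA, and genes beside the threshold. Others were chosen after their values were seen, as stated. No reference table paired Bolbase IDs with names or sequences. Alternatives were other pseudocounts (1 and 0.01), filters, scalings, eBayes without trend or robust (statmod 1.5.0), a replicate block, folds of 2 and 4, WT minimums of 0.1 and 1 FPKM, a ratio of means, and each library left out.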

Additional observations from a re-analysis of the deposited data

How the results depend on the processing

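The number of members moved with the threshold more than with the scaling. It was 187 at a fold of 2, 35 at a fold of 4, 162 with a WT minimum of 0.1 FPKM, 50 with a minimum of 1 FPKM and 488 with a ratio of means of at least 3, where the median log2 difference was 2.08. Dropping each library in turn, it lay between 87 and 238, highest without *nwgl* replicate 3. Without WT replicate 2 it was 188 and without WT replicate 1 it was 126. The rule is easier with fewer libraries, so all 78 are kept by construction. The 15 genes of the exchanged rule became 24 after either scaling, 76 and 4 at folds of 2 and 4, 44 and 9 with minimums of 0.1 and 1 FPKM, 281 with the ratio of means, and between 24 and 60 when single libraries were dropped. The median log2 difference lay between 2.96 and 3.49 when they were dropped. limma called 66 of the 78 without a filter on low values, 77 with a pseudocount of 1, and between 43 (without *nwgl* replicate 1) and 78 when single libraries were dropped. Over all genes it made between 403 and 1581 calls. The share of FPKM in the members lay between 0.512% and 0.863% in *nwgl* and between 0.0461% and 0.0510% in WT when they were dropped. Under median-of-ratios scaling and quantile normalization, chosen after seeing the data, *nwgl* replicate 2 was the highest in 26 and 20 members, and replicate 3 the lowest in 56 and 45. Of the 77 log2 differences recomputed for the 7 genes named by rule, none reversed and 7 lost their call, all with a library left out (*Bol036591* 4, *Bol016517* 2, *Bol043553* 1).

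Deviations of libraries with the same replicate number correlated at -0.02, 0.11 and 0.16, and not every library correlated best with its own number. These values are too weak and too few to decide whether the numbers pair the libraries. With the replicate number as a block, 78 members and 1314 genes in all were called, against 78 and 1190 without it. The size of a ratio is less certain where the WT value is low, and 17 members averaged under 1 FPKM there.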
